A study of Mus musculus with 14 samples.

Results

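Glutathione S-transferases join glutathione to reactive electrophiles, and the alpha class is a major cytosolic family of them in hepatocytes. The values described here are those of the mouse alpha-class genes Gsta1, Gsta2, Gsta3 and Gsta4 in the livers of furan-treated mice. Members were the array probes whose transcript accession matched one of these genes in the RefSeq table, which gave 4 of 20018 named genes and 5 probes (14 spots per array) out of 55681. All 5 passed the detection filter that left 28866 probes tested, and their liver signal was well above background on 14 of 14 arrays. The genes were selected on their log2 ratios over the dose groups of these same arrays, with the dose comparisons known. Their dose differences are therefore given as a description with standard errors (SE) and without p-values.

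The 14 mice were female B6C3F1, bought at 5-6 weeks of age, and each mouse gave 1 array. The 4 control mice received corn oil by gavage and the furan groups, of 5 mice each, received 1 or 8 mg/kg, in all cases for 21 days. Every mouse, controls included, also drank BrdU (a thymidine analogue that marks DNA synthesis) for the last 5 days, and livers were taken 4 hours after the last gavage. Liver RNA carried Cy5 and a universal mouse reference RNA carried Cy3 on every array, so each value is a log2 ratio of liver over that reference. Mice of a group are biological replicates per the design text, and are numbered here by the replicate numbers in the titles.

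Furan is a small heterocycle that hepatic CYP2E1 opens to a reactive dialdehyde, which binds glutathione and protein thiols. Gsta1 and Gsta2 encode closely similar subunits known in rodents as inducible by electrophiles and antioxidants. Gsta3 encodes the major constitutive alpha subunit of mouse liver and is known for conjugating aflatoxin epoxide. Gsta4 encodes an isoform with a preference for hydroxynonenal, a product of lipid peroxidation. Many of these genes respond to NRF2, a transcription factor that acts through antioxidant response elements.

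Gsta1, Gsta2 and Gsta4 lie in 1 stretch of chromosome 9. In the RefSeq annotation (GRCm38.p6) the order there is Gsta4, Gsta1, the predicted alpha-class genes Gm3776 and Gm10639, and then Gsta2, with Dppa5 and Omt2 genes or pseudogenes in between. Gsta3 lies on chromosome 1. The array also carried 2 probes for Gm10639, which are described beside the members because paralogs so similar can share hybridisation signal. How much of any probe's signal came from a paralog was not tested, because the probe sequences were not used here.

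The 250 bases upstream of the annotated starts show how closely the genes of the cluster resemble each other, with Gsta3 beside them. The windows, from RefSeq (GRCm38.p6), are chr9:78230419-78230668 on the plus strand for Gsta1, chr9:78289678-78289927 on the plus strand for Gm10639, chr9:78347146-78347395 on the minus strand for Gsta2 and chr1:21240335-21240584 on the plus strand for Gsta3. Each is written 5′ to 3′ toward its gene, and capitals mark the runs of at least 12 bases that Gsta1, Gm10639 and Gsta2 have in common. Gsta1, Gsta2 and Gsta3, 3 of the 4 members, had a window.
Gsta1: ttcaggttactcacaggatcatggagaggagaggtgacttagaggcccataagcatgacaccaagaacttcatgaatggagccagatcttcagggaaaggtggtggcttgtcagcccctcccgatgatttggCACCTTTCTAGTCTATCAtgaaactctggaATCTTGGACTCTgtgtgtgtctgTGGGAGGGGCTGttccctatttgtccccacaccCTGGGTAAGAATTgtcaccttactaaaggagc
Gm10639: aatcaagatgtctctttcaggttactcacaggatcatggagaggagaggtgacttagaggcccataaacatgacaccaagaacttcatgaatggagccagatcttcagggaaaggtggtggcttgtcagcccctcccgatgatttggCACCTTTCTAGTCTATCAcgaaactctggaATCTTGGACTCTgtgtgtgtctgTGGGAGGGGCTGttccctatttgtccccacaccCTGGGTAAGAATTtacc
Gsta2: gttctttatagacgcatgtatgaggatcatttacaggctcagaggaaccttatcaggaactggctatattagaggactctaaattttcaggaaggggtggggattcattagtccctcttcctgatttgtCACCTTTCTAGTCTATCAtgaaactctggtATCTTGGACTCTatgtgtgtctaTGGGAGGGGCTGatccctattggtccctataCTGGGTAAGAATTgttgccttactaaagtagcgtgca
Gsta3: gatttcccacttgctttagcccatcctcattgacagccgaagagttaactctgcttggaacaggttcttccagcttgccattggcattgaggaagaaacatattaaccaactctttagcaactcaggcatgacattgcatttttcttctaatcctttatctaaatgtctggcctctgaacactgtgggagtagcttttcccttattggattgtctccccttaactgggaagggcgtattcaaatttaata

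Over their overlapping columns, Gsta1 matched Gm10639 at 232 of 237 aligned positions (97.9%) and Gm3776 at 236 of 237 (99.6%). Gsta1 matched Gsta2 at 184 of 251 (73.3%). Aligned end to end over the whole windows, Gsta1 matched Gm3776 at 89.7% of columns, Gm10639 at 87.9%, Gsta2 at 70.5% and Gsta3 at 50.7%. No such value was computed for unrelated windows. The capitals form 4 shared runs, defined by their presence in Gsta1, Gm10639 and Gsta2, so matches in those windows were fixed in advance. The longest, CACCTTTCTAGTCTATCA, has 18 bases and begins at position -118 of Gsta1 and -121 of Gsta2. That run, ATCTTGGACTCT and CTGGGTAAGAATT each occurred in 4 of 32851 mouse windows of the same length, and those 4 were Gsta1, Gm3776, Gm10639 and Gsta2. The run TGGGAGGGGCTG occurred in 11 windows.

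The antioxidant response element core TGACNNNGC, searched on both strands, was found in the Gsta3 window as TGACATTGC at position -121 and had no match in the Gsta1, Gm3776, Gm10639 or Gsta2 windows. Of all windows, 10.2% held it. The AP-1 site TGANTCA, which can overlap that core, had no match in any of the 5 windows (6.75% of all windows). TATAAA had 1 match, on the minus strand of the Gsta2 window at -246, against 12.4% of all windows. These are letter matches in a short window, and the element described for the mouse Gsta1 gene lies further upstream than the bases printed.

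At 8 mg/kg, Gsta1 and Gsta2 were higher in every mouse than in any control or 1 mg/kg mouse, whereas the Gsta3 and Gsta4 ranges overlapped between the groups. The difference from control was 11.2-fold for Gsta1 and 2.83-fold for Gsta2. At 1 mg/kg, both lay below control with overlapping ranges. By size, these differences ranked 98 for Gsta1 and 56 for Gsta2 among the 28866 probes, none of which was called in that comparison. In the fit of all probes with limma, where a call means a Benjamini-Hochberg adjusted p under 0.05, 2 of the 5 member probes were called at 8 mg/kg against control. Of all 28866 probes, 3.49% were called in that comparison, 2.24% higher and 1.25% lower. Since these values guided the choice of genes, nothing is read from the member count or from the lack of overlap. The share of all tested probes without overlap between groups is not given here.

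Gsta1 (probe A_55_P2032946) had log2 ratios of 0.47, -0.34, 0.79 and 0.86 in control mice 1 to 4. The 1 mg/kg mice 1 to 5 had -0.83, -0.68, 0.57, 0.55 and -0.088. The 8 mg/kg mice 1 to 5 had 4.78, 3.25, 3.84, 3.53 and 3.87. The lowest 8 mg/kg mouse thus lay far above the highest mouse of either other group, while the control and 1 mg/kg values were interspersed. The group means were 0.45 ± 0.55 (SD, n = 4), -0.096 ± 0.66 (SD, n = 5) and 3.85 ± 0.58 (SD, n = 5).

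With the slide as a block, the Gsta1 difference at 8 mg/kg against control was 3.48 ± 0.35 (log2, SE), second in size (rank 2) among the 28866 probes. At 8 against 1 mg/kg it was 3.95 ± 0.32, which is 15.4-fold. At 1 mg/kg against control it was -0.47 ± 0.35, a difference close to its own error. These 3 comparisons share mice, so their values are set side by side and not used to support each other. In bulk liver RNA, a change in the number of cells that express a gene and a change in RNA per cell cannot be told apart.

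Gsta2 (A_55_P2170454) showed the same order of groups over a narrower span. Control mice had 4.18, 3.23, 3.88 and 4.13, and 1 mg/kg mice had 2.92, 2.62, 3.74, 3.43 and 3.45. The 8 mg/kg mice had 5.80, 5.05, 5.06, 5.01 and 5.37, again without overlap with either group. Means were 3.86 ± 0.44 (SD, n = 4), 3.23 ± 0.45 (SD, n = 5) and 5.26 ± 0.33 (SD, n = 5). The difference at 8 mg/kg against control was 1.50 ± 0.22 (log2, SE), which ranked 22 among all tested probes.

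For Gsta2 the difference at 8 against 1 mg/kg was 2.02 ± 0.20 (4.06-fold), and at 1 mg/kg against control it was -0.52 ± 0.22. With the scanner's own processed signals the Gsta2 difference at 8 mg/kg against control was 1.29 and was no longer called, which left 1 member probe called. The Gsta2 probe was also dim in the reference channel, at 109 to 264 intensity units before correction.

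Gsta3, the constitutive liver form, had high ratios that overlapped across the doses on both of its probes. On A_51_P503625 the control mice had 7.81, 7.80, 8.76 and 8.15, the 1 mg/kg mice 7.80, 7.82, 8.08, 8.32 and 8.64, and the 8 mg/kg mice 7.84, 8.26, 7.85, 8.27 and 7.91. Means were 8.13 ± 0.45 (SD, n = 4), 8.13 ± 0.36 (SD, n = 5) and 8.03 ± 0.22 (SD, n = 5). The differences from control were -0.044 ± 0.12 (log2, SE) at 8 mg/kg and 0.062 ± 0.12 at 1 mg/kg, both smaller than their error.

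The other Gsta3 probe, A_55_P1961423, ran from 6.71 to 8.15 in controls, 6.59 to 8.04 at 1 mg/kg and 6.53 to 7.90 at 8 mg/kg. Its differences from control were 0.068 ± 0.096 at 8 mg/kg and 0.19 ± 0.096 at 1 mg/kg. The highest mouse of each group on this probe was the one hybridised on slide 3. Raw liver intensities of the Gsta3 probes ran from 71300 to 229000 and no spot was marked saturated.

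Gsta4 (A_51_P112223) had the smallest SDs within groups of the 5 member probes. Its values are means of up to 10 spots per array, against 1 spot for each other member probe, so these SDs are not on an equal footing. Control mice had 1.19, 1.04, 1.02 and 1.26, 1 mg/kg mice 0.92, 0.86, 1.07, 0.63 and 1.06, and 8 mg/kg mice 1.11, 0.68, 0.81, 0.93 and 0.81. Both furan groups lay on average a little below control with overlapping ranges, at 0.91 ± 0.18 (SD, n = 5) and 0.87 ± 0.16 (SD, n = 5) against 1.13 ± 0.12 (SD, n = 4). The differences from control were -0.24 ± 0.09 (log2, SE) at 8 mg/kg and -0.20 ± 0.09 at 1 mg/kg, and neither was called.

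The size of the Gsta4 difference depended on the scaling. Centring each array on its median in place of loess gave -0.031 at 8 mg/kg and -0.027 at 1 mg/kg, while it moved the median difference of all tested probes to 0.13 and 0.14. In the liver channel, taken after loess and so not free of the reference, the Gsta4 difference at 8 mg/kg was -0.35 ± 0.089 and was called.

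**Figure D1:**
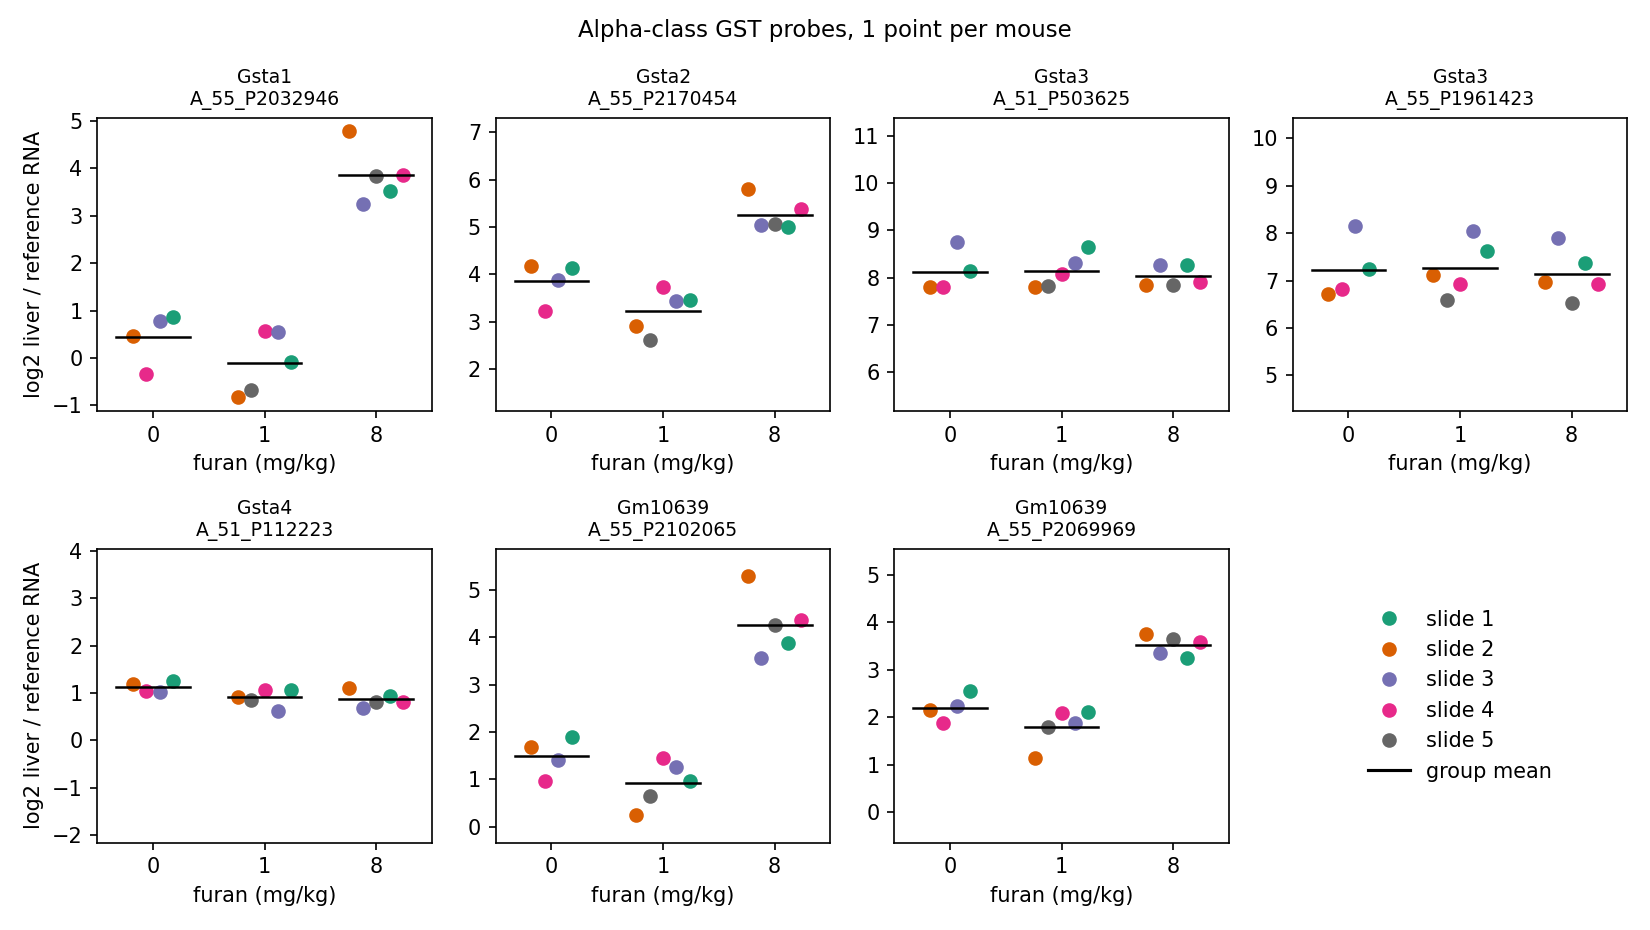
Log2 liver over reference ratio of each alpha-class probe (vertical axis) by furan dose in mg/kg (horizontal axis). Each point is 1 mouse coloured by slide, lines are group means, and all panels span the same number of log2 units. For Gsta1 the 8 mg/kg mice lie between 3.25 and 4.78 and all other mice at or below 0.86, while the Gsta3 and Gsta4 groups overlap.

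Gsta4 was printed as 10 spots on each array. After 8 flagged spots of all arrays were left out, the SD among spots of an array was 0.037 to 0.12 with a median of 0.061. The SD between mice was 0.12 in controls, 0.18 at 1 mg/kg and 0.16 at 8 mg/kg. The spread between mice also holds slide, labelling and array differences, which the spots of an array share, so the 2 kinds of SD are not compared. Spots of an array share 1 labelled RNA and were averaged to 1 value per mouse.

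**Figure D2:**
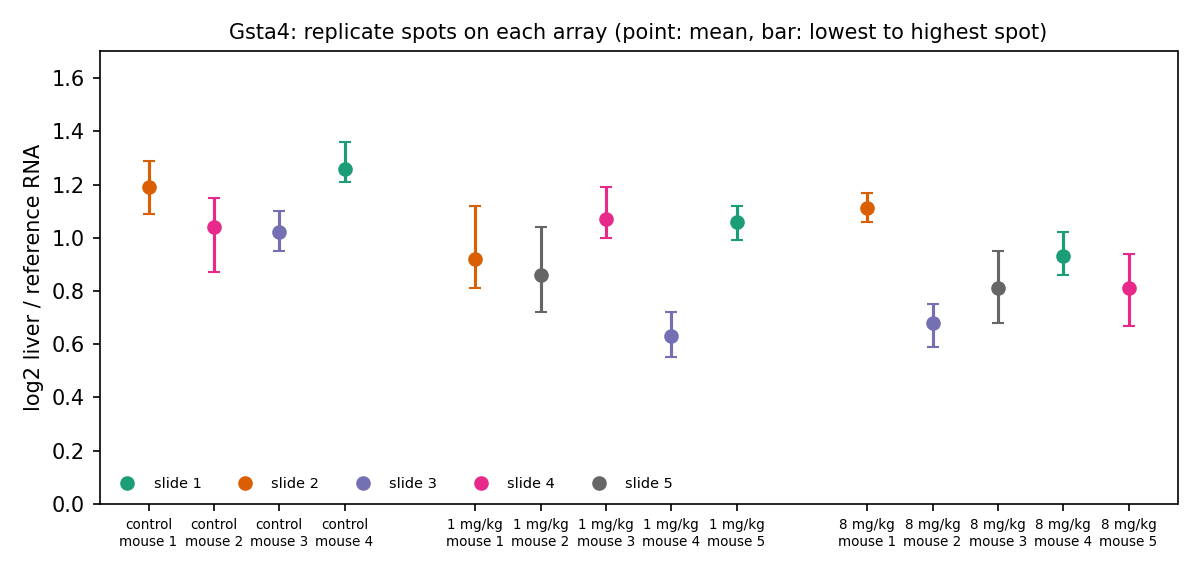
Gsta4 log2 liver over reference ratio on each array, with the mouse on the horizontal axis and colour for the slide. Points are means of the spots used and bars run from the lowest to the highest spot. The mouse means lie between 0.63 and 1.26, and the 3 dose groups overlap.

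The 2 probes of Gm10639 showed the same order of groups as Gsta1 and Gsta2. On A_55_P2102065 the mean ratio was 1.49 ± 0.40 (SD, n = 4) in controls, 0.91 ± 0.48 (SD, n = 5) at 1 mg/kg and 4.27 ± 0.66 (SD, n = 5) at 8 mg/kg. On A_55_P2069969 the means were 2.20 ± 0.28, 1.80 ± 0.39 and 3.52 ± 0.21 for the same groups. The differences at 8 mg/kg against control were 2.82 ± 0.32 and 1.30 ± 0.18 (log2, SE), or 7.04-fold and 2.46-fold, without overlap on either probe. At 1 mg/kg they were -0.54 ± 0.32 and -0.42 ± 0.18. The second probe was dim in the reference channel, at 44 to 75 units before correction, and with the scanner's processed signals it was not called at 8 mg/kg.

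Slides 1 to 4 each held mice of all 3 groups, so the comparison can be made within a slide. For Gsta1, the 8 mg/kg mouse exceeded the control mouse by 2.66, 4.31, 2.46 and 4.21 on slides 1 to 4. For Gsta2, the same differences were 0.88, 1.61, 1.16 and 2.14. The sign was the same on every slide for both genes, and the size varied by more than 1 log2 unit. Since the 8 mg/kg and control values of both genes did not overlap, the common sign was already fixed. It adds no separate evidence.

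At 1 mg/kg against control the Gsta1 differences on slides 1 to 4 were -0.95, -1.3, -0.24 and 0.91, and those of Gsta2 were -0.68, -1.27, -0.45 and 0.51. Both genes were thus lower on slides 1 to 3 and higher on slide 4, whose control mouse (control mouse 2) had the lowest Gsta1 and Gsta2 values of its group. Both Gm10639 probes had the same signs by slide. Gsta4 at 8 mg/kg was below control on 4 of 4 slides, by differences of -0.33, -0.071, -0.33 and -0.23.

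**Figure D3:**
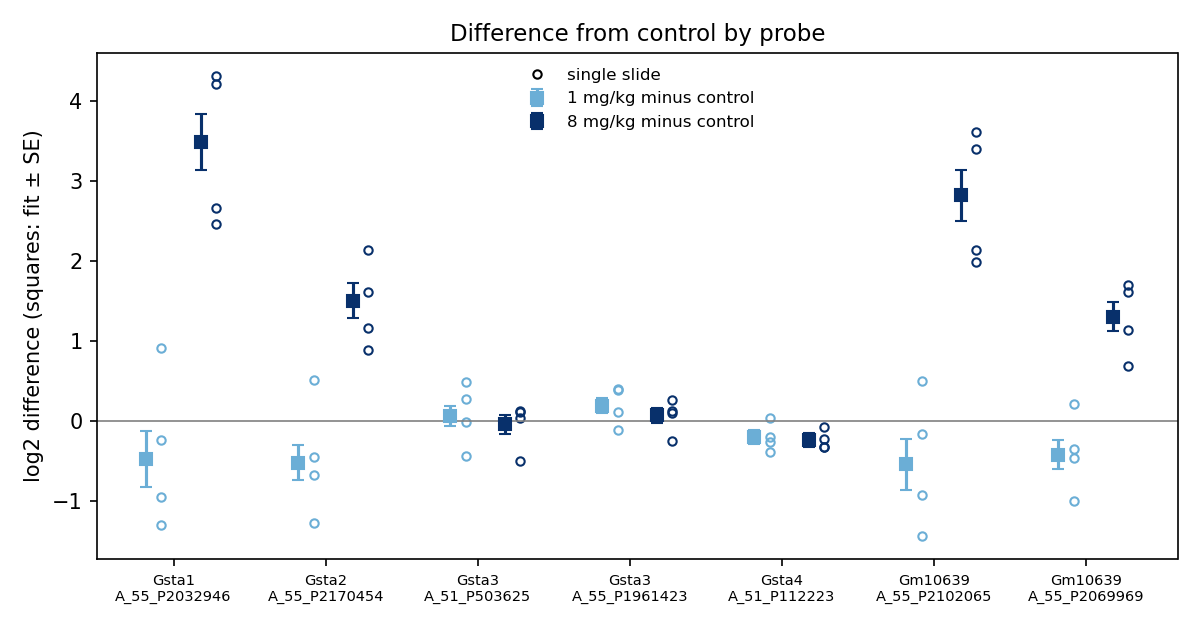
Difference from control in log2 units (vertical axis) for each alpha-class probe (horizontal axis). Squares are estimates with the slide as a block, bars are ± SE, and open circles are the differences within slides 1 to 4. The circles of Gsta1 at 8 mg/kg lie between 2.46 and 4.31, and those of Gsta1 at 1 mg/kg between -1.3 and 0.91.

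Gsta1 and Gsta2 varied between mice of a group far more than most probes. The residual SD, after slide and dose were removed, was 0.73 for Gsta1 and 0.44 for Gsta2, against a median of 0.14 over all tested probes. That of Gsta1 exceeded 99.9% of probes and that of Gsta2 99.1%. For Gsta3 the residual SD was 0.21 and 0.13 on its 2 probes. For Gsta4, whose values are means of up to 10 spots per array, it was 0.11.

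What remained after slide and dose were removed correlated most among Gsta1, Gsta2 and Gm10639. Over the 14 arrays, Pearson's r of these remainders was 0.92 between Gsta1 and Gsta2, and 0.98 and 0.89 between Gsta1 and the probes of Gm10639. It was 0.63 between Gsta1 and Gsta4, and 0.32 and 0.023 between Gsta1 and the Gsta3 probes. The 2 Gsta3 probes correlated at 0.74 with each other. These values are descriptions: the probes share arrays, RNA and, within the cluster, possibly target sequence. Removing slide and dose means also leaves fewer independent values than the 14 arrays.

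With the alpha-class genes themselves left out, 11639 named genes were detected on all arrays. Of these, those whose ratios most resembled Gsta1 with slide means removed were Gnl2 (Pearson's r = 0.98), Gstm1, Tsc22d4, Ifrd1 and Abhd5 (each 0.96). With the dose means also removed they were Tsc22d4 (0.97), Zbtb11os1 (0.96), Apbb3, Mocs3 and Cenpo (each 0.94). Of these non-alpha-class genes, Tsc22d4 alone was in both sets of 5. Gsta3 was most like Zer1 (0.91), Idnk and Selenbp1 (each 0.89) with slide means removed, and Ttc39a (0.95), Psmb8 (0.95) and Ninj1 (0.94) with dose also removed. Gsta4 was most like Ace (0.89), Emilin1 and Ppp2r3d (each 0.88), and then Cracr2b (0.95), Guf1 (0.95) and Ace (0.93). All are the highest of many candidates over 14 arrays, with fewer independent values once slide and dose means are removed, and no test is given.

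The Cy3 channel, the denominator of each ratio, held the same reference RNA on every array. No probe was called between any groups there (0 of 28866, with 1415 probes or 4.90% at an unadjusted p under 0.05 for 8 mg/kg against control). The Gsta1 reference signal differed by 0.14 ± 0.068 (log2, SE) and that of Gsta2 by 0.13 ± 0.078 at 8 mg/kg against control. For Gsta3 the 2 reference differences were both -0.096, and for Gsta4 it was -0.11 ± 0.053. Because the ratios that chose the genes contain this channel, these are descriptions as well. In the liver channel alone, Gsta1 differed by 3.62 ± 0.40 and Gsta2 by 1.63 ± 0.25, each larger than the reference difference of the same probe.

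**Figure D4:**
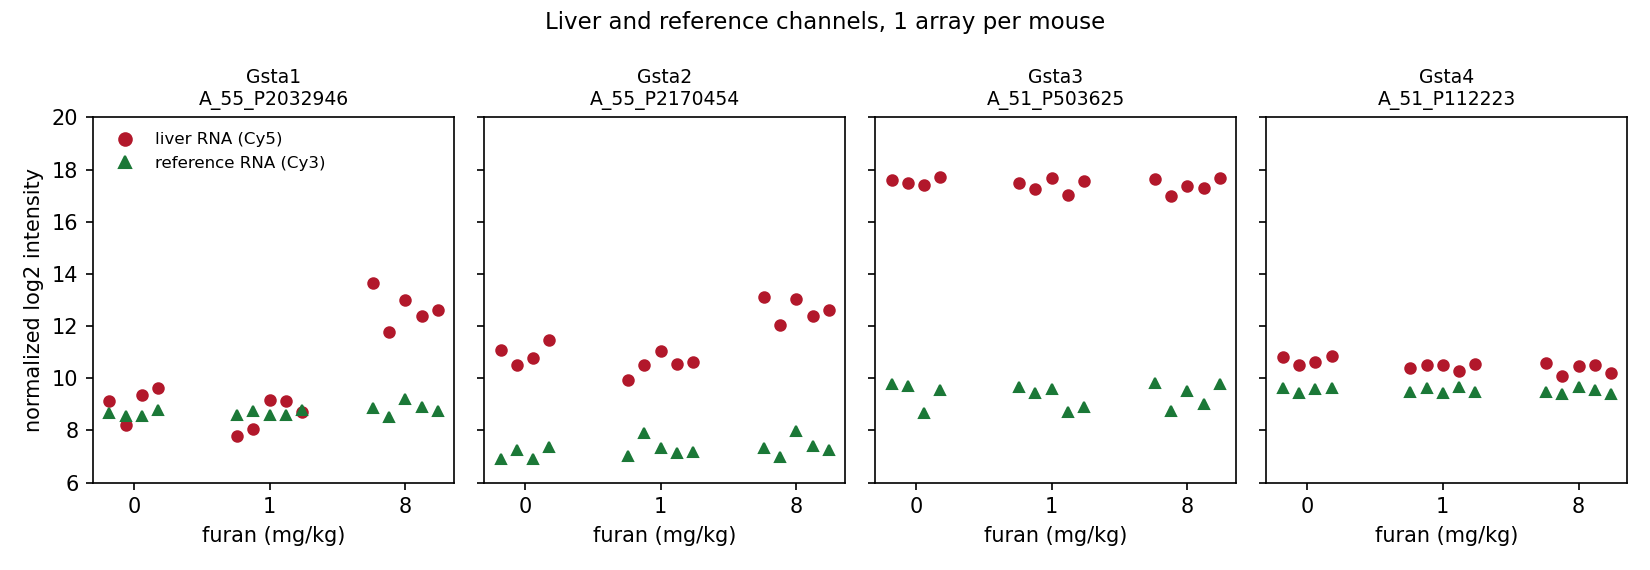
Normalized log2 intensity (vertical axis) of the liver channel (circles) and the reference channel (triangles) by furan dose, 1 array per mouse, for Gsta1, Gsta2, Gsta4 and 1 probe of Gsta3. The liver values of Gsta1 and Gsta2 are higher at 8 mg/kg than in controls by 3.62 and 1.63 log2 units, and their reference values differ by 0.14 and 0.13.

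None of the other listed genes, which cover glutathione use and NRF2 control, rose by more than 1.09 log2 units at 8 mg/kg. Of these 52 genes, termed pathway genes here, 49 were tested, each read from 1 probe. At 8 mg/kg against control 10 rose, 0 fell and 39 were not called. Of all 24873 features at 1 probe per gene, 3.63% were called, 2.36% higher and 1.27% lower. The median difference of the list was 0.1 (log2), and that of all features was -0.00014. At 1 mg/kg against control limma called 0 of 49 listed genes and 0 of the 5 member probes. Over all probes that comparison gave 0 calls (0%), 1934 probes (6.70%) at an unadjusted p under 0.05 and a smallest adjusted p of 0.0613.

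The count of 10 depended on single mice, as did the count over all probes. Without control mouse 1, 6 genes were called, of which 5 were higher and 1 was lower. Without 8 mg/kg mouse 1, 6 were called and all 6 were higher. Calls over all probes fell from 1006 to 391 without control mouse 1, and to 391 without 8 mg/kg mouse 1.

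Among the 19 tested transferases of other classes, 3 rose at 8 mg/kg: Gstm1, Gstp2 and Gstm4. Gstm1, a mu-class enzyme abundant in liver, rose by 0.88 ± 0.11 (log2, SE; adjusted p = 0.000518). Its ratios ran from 3.26 to 3.90 in controls, 3.37 to 3.91 at 1 mg/kg and 4.22 to 4.60 at 8 mg/kg, where no mouse overlapped the other groups. Gstp2, of the pi class, rose by 0.70 ± 0.13 (adjusted p = 0.0117), and Gstm4 rose by 0.45 ± 0.11 (adjusted p = 0.0398). The median of the 19 was -0.007.

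Of the transferases not called, Gstp1 differed by 0.45 ± 0.15 (adjusted p = 0.12) and Gstm3 by 0.34 ± 0.11 (adjusted p = 0.104). The differences of Gstm5 (0.19), Gsto1 (0.18), Gstt1 (-0.064) and Gstk1 (-0.16) were small. Mu-class and pi-class genes have close paralogs as well, so their probes carry the same limit as those of the alpha class.

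Of the 30 tested genes of glutathione synthesis, breakdown, export and NRF2 control, 7 rose at 8 mg/kg, 0 fell and 23 were not called. Gclc, the catalytic subunit of the rate-limiting step of glutathione synthesis, rose by 1.01 ± 0.14 (log2, SE; adjusted p = 0.00112). Its modifier subunit Gclm differed by 0.092 ± 0.089 and was not called. Ggct, which acts in the breakdown of gamma-glutamyl peptides, rose by 0.47 ± 0.11 (adjusted p = 0.0284).

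Nfe2l2, the gene of NRF2 itself, rose by 0.76 ± 0.11 (adjusted p = 0.00159). The widely used NRF2 targets Nqo1, a quinone reductase, and Hmox1, haem oxygenase, rose by 0.69 ± 0.11 (adjusted p = 0.00437) and 1.09 ± 0.18 (adjusted p = 0.00366). Srxn1 (sulfiredoxin) rose by 0.69 ± 0.15 (adjusted p = 0.0252) and Txnrd1 (thioredoxin reductase) by 0.46 ± 0.095 (adjusted p = 0.0176). All 10 were higher than control on each of 4 slides. The calls came from a fit to those same slides, so this adds no separate evidence. Gclm, which was not called, was also higher on 4 of 4 slides. This list was written with earlier results of these arrays known.

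At 8 against 1 mg/kg, 2 of the 5 member probes (Gsta1 and Gsta2) were called, beside 5.06% of all probes (2.28% higher and 2.79% lower). In that comparison 11 listed genes rose, 1 fell and 37 were not called, while 5.1% of features at 1 probe per gene were called, 2.35% higher and 2.75% lower. The gene that fell was Chac2, which encodes a glutathione-degrading enzyme, by a difference of -0.40 ± 0.071 (log2, SE; adjusted p = 0.00523). The count of 12 called genes was 7 without 1 mg/kg mouse 1, and 8 both without 1 mg/kg mouse 4 and without 8 mg/kg mouse 1. Calls over all probes, 1462 with every mouse, were 595, 1042 and 560 in these settings.

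**Figure D5:**
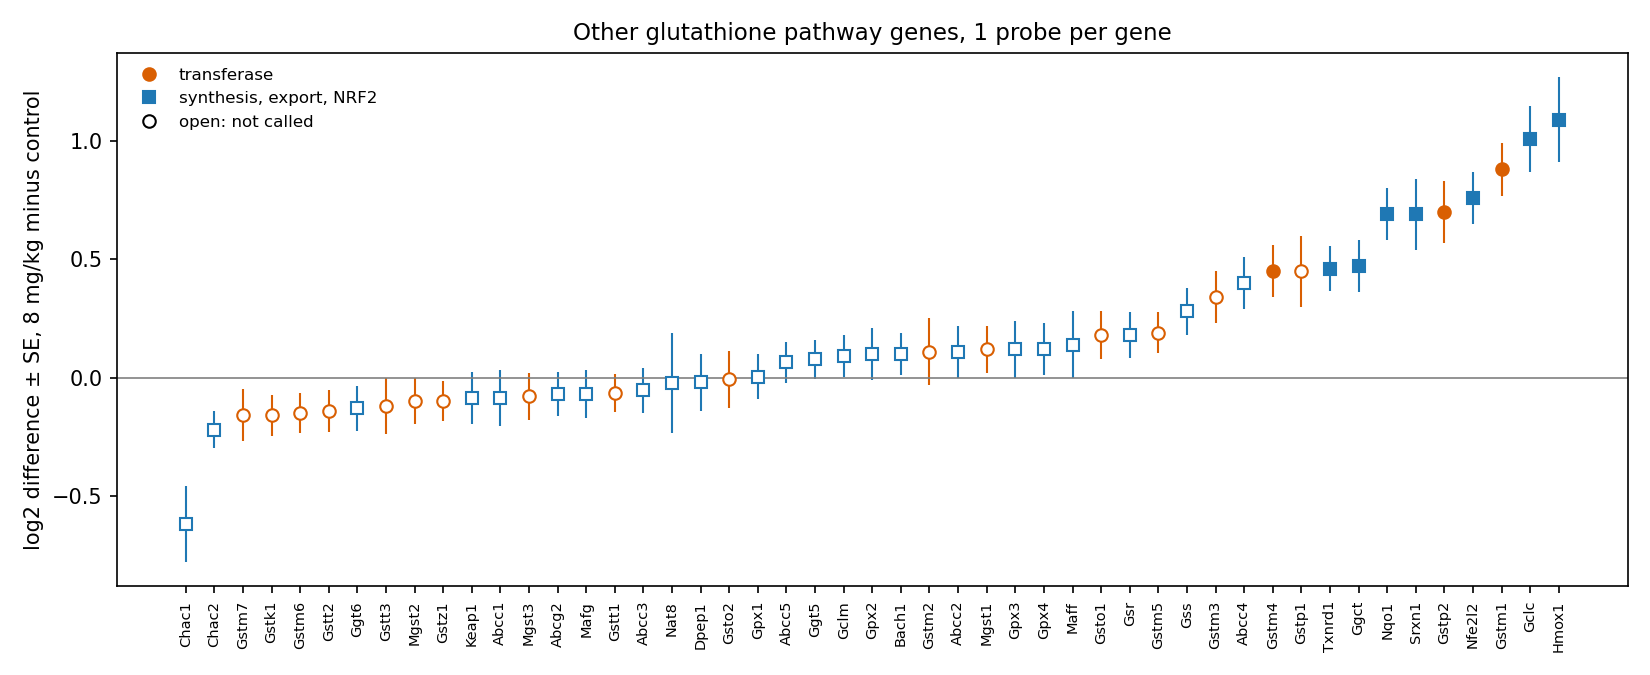
Log2 difference at 8 mg/kg against control with ± SE (vertical axis) for the 49 tested pathway genes in order of size (horizontal axis), 1 probe per gene. Circles are transferases and squares are genes of synthesis, export and NRF2 control, filled where the adjusted p was under 0.05. The 10 filled points are all above 0, from 0.45 for Gstm4 to 1.09 for Hmox1.

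Across all probes, the arrays of slide 3 and those of the 8 mg/kg mice stood apart. The first principal component (30.2% of variance, 86.4% of it between slides) set the 3 arrays of slide 3 apart, and the second (16.5%, 84.7% of it between groups) set the 8 mg/kg arrays at -32.3 to -10.7 apart from the rest. Control arrays (5.74 to 14) and 1 mg/kg arrays (0.463 to 16.1) were interspersed there. Without slide 3, the differences at 8 mg/kg against control were 3.77 for Gsta1, 1.60 for Gsta2, 0.11 and 0.17 for Gsta3 and -0.21 for Gsta4. Of the hepatocyte markers, 12 of 12 were well above background on all arrays. So were 7 of 7 Kupffer cell markers on the array, 8 of 8 endothelial and 8 of 8 stellate cell markers. Detection alone thus does not single out hepatocytes. In controls the median log2 ratio over the reference was 6.71 for the hepatocyte list and -1.39 to 4.18 for the other marker lists.

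Tissues that also carry alpha-class transferases were checked by 8 markers of kidney and intestine. Of these, 4 (Umod, Slc12a1, Lrp2 and Cdx2) were well above background on no array and 3 (Aqp2, Fabp2 and Vil1) on every array. The summed liver-channel intensity of the list was 23800 to 33800 in controls, 24000 to 33400 at 1 mg/kg and 13700 to 19300 at 8 mg/kg. Fabp2, a fatty-acid-binding protein gene, made up 97.4% of the sum in controls and fell by 0.55 ± 0.11 (log2, SE; adjusted p = 0.0125). In controls the mean log2 ratio of Fabp2 was 8.15, against a median of 6.71 for the hepatocyte list. The sum thus mainly follows this 1 gene and does not by itself measure kidney or intestine tissue. The part of Fabp2 in the alpha-class differences was not tested. The median differences at 8 mg/kg of the lists for bile duct, Kupffer, endothelial, stellate, lymphoid and pancreatic cells lay between -0.12 and 0.033. In the hepatocyte list, 1 marker, Cps1 of the urea cycle, fell by 0.34 ± 0.083 (adjusted p = 0.0369).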

How the data were processed

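Liver RNA of 14 mice was measured on Agilent 8x60K 2-colour arrays, 1 array per mouse, with the same dye orientation throughout. Per the file headers, the deposited intensities were read with Feature Extraction 10.7.3.1. The authors also deposited a table that holds linear ratios of liver over reference (r of 0.992 to 0.995 with the log ratios computed here, column medians of 0.9765 to 0.9897). How it was normalized is not given in the sources here. It served as an alternative.

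Median intensities were corrected with normexp (offset 50) and loess within arrays, control spots (3671 of 62976) having no weight. Values of a single channel were taken after that loess step and after quantile scaling of mean intensities between arrays (Aquantile). The liver channel alone, as named here, is therefore not free of the reference channel. Flagged spots (178 to 336 per array) were left out and repeated spots averaged to 55681 probes. Accessions named 26413 probes through RefSeq (GRCm38.p6), which served for names and gene order. Probes well above background in the liver channel on at least 4 of 14 arrays were tested. Per array, 23062 to 29847 probes were well above background (41.4% to 53.6%). Precision is limited by how many arrays there were.

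Groups were compared in limma 3.58.1 under R 4.3.3 (lmFit, eBayes), in a model of all 14 arrays that took the slide as a fixed block, and p-values were adjusted by Benjamini-Hochberg over all tested probes. The fit was tested on simulated data. For pathway genes, the probe with the highest mean liver signal stood for the gene. The text names every alpha-class probe, the pathway genes called at 8 mg/kg (up to 12), up to 6 uncalled transferases, and the genes most like Gsta1 (5), Gsta3 and Gsta4 (3 each). Chac2, Gclm, Cps1 and Fabp2 were named after their values were seen. The members and lists were chosen with earlier results of these data known. Alternatives covered the block, background correction, normalization, channel, authors' ratios, detection filter, probe choice and leaving out each array; leaving out slide 3 and blocking on scan day were added after seeing the data.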

Additional observations from a re-analysis of the deposited data

How the results depend on the processing

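Over 28 alternatives, the difference at 8 mg/kg against control ran from 3.13 to 3.81 for Gsta1 and 1.22 to 1.69 for Gsta2, without a change of sign. The 1 mg/kg against control ranges were wide for their size, -0.82 to -0.11 for Gsta1 and -0.80 to -0.29 for Gsta2, the lower ends without control mouse 2 and the upper ends without 1 mg/kg mouse 1. Gsta3 changed sign between settings on both probes (-0.15 to 0.12 and -0.11 to 0.18), and Gsta4 ran from -0.35 in the liver channel alone to -0.031 with median centring. Gsta1 was called at 8 mg/kg in 28 of 28 alternatives and Gsta2 in 27. With processed signals 1 member probe was called, and leaving out each mouse gave 2 to 2. The members were chosen on these dose differences, so nothing is read from how often they were called. Calls over all probes at 8 mg/kg against control, 1006 as reported, were 331 without the slide in the model, 388 with the arrays of the 2 groups alone, 378 with processed signals, 1598 with median centring, 503 without slide 3 and 391 to 945 with each mouse left out (391, 493, 449 and 651 without control mice 1 to 4, 637 without 1 mg/kg mouse 2, and 391, 637 and 456 without 8 mg/kg mice 1, 3 and 5). Of these calls 64.2% were higher as reported and 96.5% with median centring. At 8 against 1 mg/kg, 1462 became 370 without the slide, 414 with processed signals, 510 with median centring and 560 to 1602 with each mouse left out (595, 656, 924 and 926 without 1 mg/kg mice 1, 2, 3 and 5, and 560, 656 and 788 without 8 mg/kg mice 1, 3 and 5); 44.9% were higher as reported, 68.4% with median centring, 64.5% with processed signals and 61.1% without the slide. At 1 mg/kg against control, 0 became 1 with no background correction, 1 with the authors' ratios, 1 with no detection filter, 3 with median centring and 0 to 3 with each mouse left out (3 without 1 mg/kg mouse 3, 1 without 8 mg/kg mouse 5). Pathway genes called at 8 mg/kg against control, 10 as reported, were 5 with the 2 groups alone, 4 with processed signals, 16 in the liver channel alone and 6 to 11 with each mouse left out. At 8 against 1 mg/kg, 12 became 6 with processed signals, 7 with median centring and 7 to 12 with each mouse left out. In the reference channel, 0 calls became 0 to 1 with each mouse left out. For these changes the cause was not tested. Precision is limited by 4 to 5 arrays per group.

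Replicate numbers in the titles were not treated as pairs. Deviations of same-numbered arrays correlated at -0.42 to 0.23, with 5 of 13 pairs above 0.1, against 0.079 to 0.65 for arrays of 1 slide. Of the 13 same-numbered pairs, 4 also shared a slide. Such correlations cannot tell whether same-numbered mice were matched in another way, which was not tested. With a replicate block in place of the slide, calls over all probes were 140 at 8 mg/kg against control and 179 at 8 against 1 mg/kg. Pathway calls with that block were 5 and 4, and the 2 called member probes were still 2 in both comparisons. As the members were chosen on these dose differences, nothing is read from their calls here either.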
